A study of Rattus norvegicus with 12 samples.

Results

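The 8 genes described here, leukotriene and prostaglandin genes and a few cytochrome P450 genes, were measured in rats given lipopolysaccharide (LPS), a cell wall component of Gram-negative bacteria. They are Alox5, Alox5ap, Ptger4, Pla2g2a and the cytochrome P450 genes Cyp4f1, Cyp4f4, Cyp2f4 and Cyp2d4. They were found by gene symbol in the platform annotation, each had 1 probe, and they make up 8 of the 3939 named genes on an array of 7200 probes. The symbols had been picked with the 2 h and 6 h ratios of these arrays in view, so the ratios of the 8 genes are given as a description, with no test. The series title places the samples in blood. The tested RNA came from 3 rats labelled LPS 6hr (rats 2, 4 and 6) and 3 rats labelled LPS 2hr (rats 1, 2 and 3). The RNA of each rat was hybridised against the control pool labelled with the same time, on 2 arrays named fluor and flip. Strain, age, sex, dose, route and how the pools were made are not given by the labels. A pool counts as 1 control sample, its own spread enters no error, and a difference between the times also holds any difference between the pools.

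Eicosanoids are short-lived lipid signals made from arachidonic acid, which phospholipases A2 such as the secreted enzyme Pla2g2a release from membranes. In leukocytes 5-lipoxygenase (Alox5), helped by the membrane protein FLAP (Alox5ap), turns arachidonic acid into leukotrienes, among them the neutrophil attractant leukotriene B4. Cyclooxygenases make prostaglandins instead, and prostaglandin E2 acts partly through the EP4 receptor (Ptger4), which raises cyclic AMP. P450 enzymes of the 4F family inactivate leukotriene B4 by omega-hydroxylation.

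All values are log2 ratios as deposited, read as LPS over control pool. A value of 1 is a doubling. That direction is likely and not settled, since the dyes are not stated. It rests on textbook LPS-induced genes: of 8 on the array, 5 (Zfp36, Lcn2, Irf1, Il1b and Il1r2) were positive on 12 of 12 arrays, while Sod2 was so on 10, Tnf on 8 and Nfkbia on 3. Over all probes the paired arrays of each rat correlated between -0.23 and 0.25 (Pearson). The means of the 8 genes, and of other genes whose call depends on it, are therefore also given with the flip arrays multiplied by -1, the reading in which they had not been turned. On each array 242 to 298 probes carried 1 repeated value in place of a measured ratio. In bulk RNA a change in the number of cells of a type and a change in RNA per cell cannot be told apart, and ratios give no level, so the blood label could not be checked against marker levels.

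**Figure D1:**
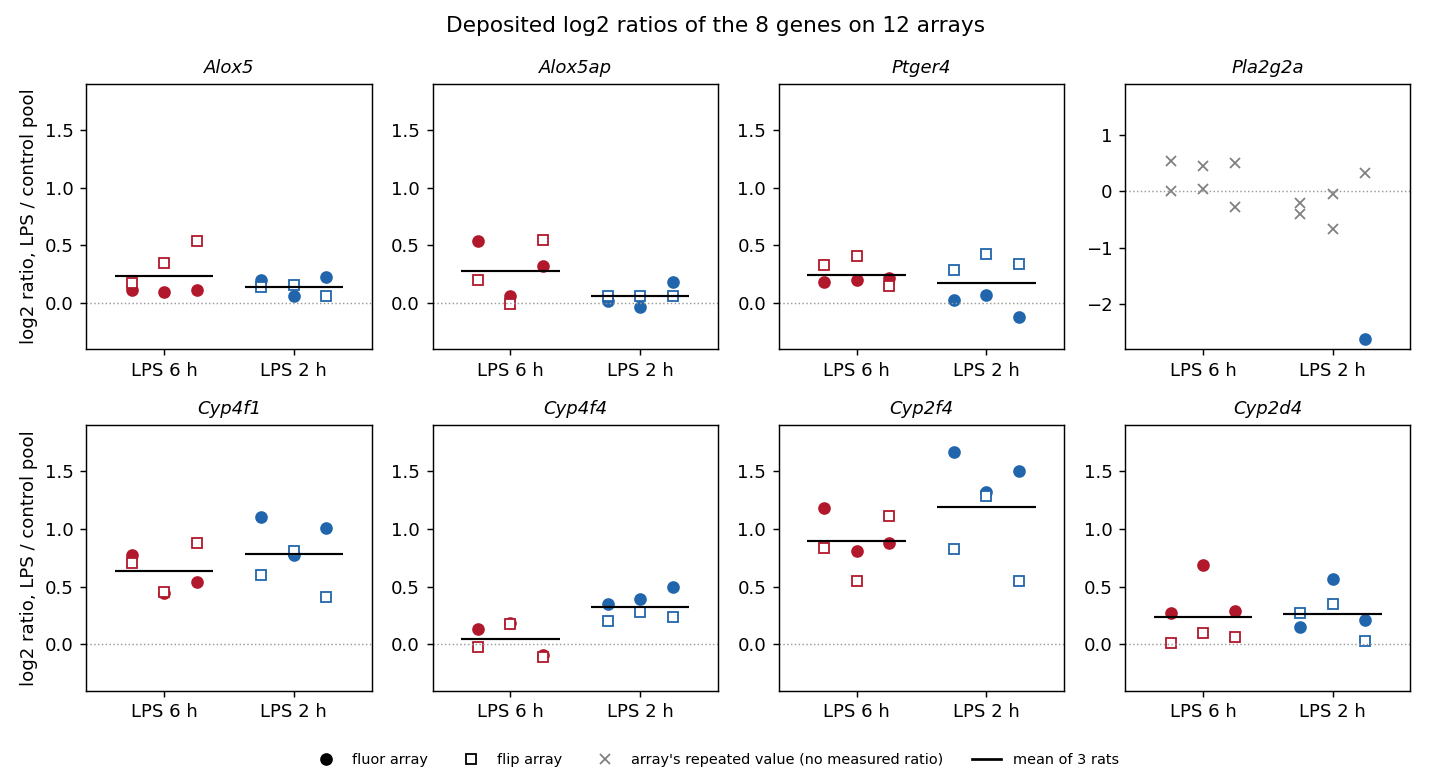
Log2 ratio of LPS over control pool (vertical axis) for the 8 genes on each of 12 arrays, with 6 h rats left of 2 h rats, filled circles for fluor and open squares for flip arrays, and a line at the mean of 3 rats (none for Pla2g2a, which has an axis of its own). Cyp2f4 and Cyp4f1 lie furthest above 0 at both times, and 11 of 12 Pla2g2a values (crosses) are the repeated value of their array.

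Promoter sequences from RefSeq (GRCr8; 250 bases before to 50 after the gene start, 5′ to 3′) were at hand for 6 of the 8 genes. Those of 3 are shown, Alox5 as the central enzyme of the leukotriene branch, and Cyp2f4 and Cyp4f1 because their ratios ran together. Capitals mark matches on either strand to a GC box (GGGCGG) or a kappaB-type motif (GGG, any 5 bases, CC).
Alox5, chr4:151251077-151251376, minus strand: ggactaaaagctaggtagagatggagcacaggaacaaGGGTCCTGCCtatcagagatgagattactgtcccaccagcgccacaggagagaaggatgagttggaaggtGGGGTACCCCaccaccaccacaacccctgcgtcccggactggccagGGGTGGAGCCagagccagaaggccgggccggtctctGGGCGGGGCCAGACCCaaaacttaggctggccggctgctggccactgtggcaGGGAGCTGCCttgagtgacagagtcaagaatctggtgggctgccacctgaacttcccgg
Cyp2f4, chr1:91543518-91543817, plus strand: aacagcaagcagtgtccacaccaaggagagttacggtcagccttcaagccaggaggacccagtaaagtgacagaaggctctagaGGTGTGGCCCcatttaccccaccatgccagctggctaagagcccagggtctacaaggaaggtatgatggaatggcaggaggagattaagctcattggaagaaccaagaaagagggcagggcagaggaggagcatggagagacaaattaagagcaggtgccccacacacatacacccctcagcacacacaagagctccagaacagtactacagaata
Cyp4f1, chr7:12672504-12672803, minus strand: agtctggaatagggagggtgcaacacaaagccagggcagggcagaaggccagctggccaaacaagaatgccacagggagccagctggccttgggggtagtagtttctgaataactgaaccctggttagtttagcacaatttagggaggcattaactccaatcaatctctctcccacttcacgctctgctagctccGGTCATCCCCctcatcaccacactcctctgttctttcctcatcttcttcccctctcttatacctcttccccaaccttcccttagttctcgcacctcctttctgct
The Alox5 window held 1 GC box and 7 kappaB-type matches, 2 of which overlap the GC box. The Cyp2f4 and Cyp4f1 windows held 1 kappaB-type match each and 0 GC boxes. Of 33469 promoter windows 33.1% held a GC box and 47.3% a kappaB-type match, so matches are common. The AP-1 motif TGANTCA (7.33% of windows) and the TATA box TATAAA (14.2%) matched 0 times in these 3 windows. These are matches of letters only. G and C made up 61.7% of the Alox5 window, 52.3% of that of Cyp2f4 and 52.0% of that of Cyp4f1. Cyp2d4, not shown, had 64.0%, and the median over all windows was 51.7%.

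Alox5 lay slightly above 0 on all 12 arrays. At 6 h its fluor and flip ratios were 0.11 and 0.18 in rat 2, 0.096 and 0.34 in rat 4, and 0.12 and 0.54 in rat 6. At 2 h they were 0.20 and 0.14 in rat 1, 0.066 and 0.16 in rat 2, and 0.23 and 0.063 in rat 3. The rats of the times overlapped: rat 2 at 6 h (0.14) lay within the 2 h range of 0.11 to 0.17, while rats 4 (0.22) and 6 (0.33) lay above it. The means were 0.23 ± 0.094 at 6 h and 0.14 ± 0.028 at 2 h (SD, n = 3 rats each), or 1.17-fold and 1.10-fold. The 6 h mean came mostly from the flip arrays, at 0.35 against 0.11 on the fluor arrays, and with the flip arrays multiplied by -1 it was -0.12 (2 h: 0.023).

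Some probes numbered near Alox5 had larger ratios. An unnamed probe numbered directly before it averaged 1.07 at 6 h and 1.08 at 2 h. Tmpo, numbered 2 after it, averaged 0.87 and 0.37. Over the 12 arrays these probes correlated with Alox5 at 0.097 and -0.13 (Pearson). The unnamed probe directly after Alox5 averaged 0.25 and 0.14 (correlation 0.58). Ctrb1, numbered 2 before it, averaged 0.15 and -0.36 (correlation 0.28). Subtracting the median of the 10 probes numbered before and the 10 after left Alox5 at 0.13 at 6 h and 0.093 at 2 h. Regressing out the probes numbered 2 before and 2 after left 0.058 at 6 h and 0.15 at 2 h. The part of these neighbours in the ratio of Alox5 was not tested.

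Alox5ap, whose protein presents arachidonic acid to 5-lipoxygenase, differed from rat to rat at 6 h. Rat 2 had 0.54 on the fluor and 0.20 on the flip array, rat 6 had 0.32 and 0.54, and rat 4 had 0.058 and -0.0094. At 2 h rat 1 had 0.018 and 0.061, rat 2 had -0.029 and 0.060, and rat 3 had 0.19 and 0.060. So 2 of 3 rats at 6 h (means 0.37 and 0.43) lay above all 2 h rats (0.015, 0.039 and 0.12), and rat 4 (0.024) lay among them. The mean was 0.28 ± 0.22 at 6 h and 0.059 ± 0.057 at 2 h, where it was 0.027 without rat 3. Fluor and flip arrays gave like means (0.31 and 0.24 at 6 h, 0.059 and 0.060 at 2 h), so with the flip arrays multiplied by -1 it stood at 0.032 at 6 h and -0.00087 at 2 h. Without rat 4 the 6 h mean was 0.40. Across the 12 arrays Alox5ap and Alox5 correlated at 0.40 (Pearson), rank 712 of 3938 genes by likeness to Alox5. The closest 3 were Orm1, an acute phase plasma protein (0.89), the Rap exchange factor Rapgef2 (0.88) and the LIM kinase Limk2 (0.88). The arrays share rats, pools and dyes, so these figures only describe them.

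Ptger4, the EP4 receptor, was above 0 on 11 of 12 arrays, with ratios that depended on the array type at 2 h. Its fluor and flip ratios at 6 h were 0.18 and 0.33 in rat 2, 0.20 and 0.41 in rat 4, and 0.22 and 0.15 in rat 6. At 2 h the fluor arrays of rats 1, 2 and 3 read 0.031, 0.075 and -0.12, whereas their flip arrays read 0.29, 0.43 and 0.34. The rat means of the times overlapped, at 0.18 to 0.31 at 6 h and 0.11 to 0.25 at 2 h. The means were 0.25 ± 0.063 at 6 h and 0.17 ± 0.071 at 2 h (SD, n = 3 each). The fluor mean was 0.20 at 6 h and -0.0061 at 2 h, so the 2 h value was carried by the flip arrays. With the flip arrays multiplied by -1 Ptger4 stood below 0, at -0.049 at 6 h and -0.18 at 2 h.

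Pla2g2a, the secreted phospholipase A2 known as an acute phase enzyme, held a measured ratio on 1 of 12 arrays. On the other 11 its value was exactly the repeated value of that array. These ran from -0.29 to 0.53 on the 6 h arrays and from -0.67 to 0.31 on the 2 h arrays. The measured value was -2.61, on the fluor array of rat 3 at 2 h, and the flip array of the same rat held the repeated value 0.31. Averaging as deposited gives 0.20 at 6 h and -0.61 at 2 h (-0.28 and -0.62 with the flip arrays multiplied by -1), figures that describe the repeated values and that 1 array. No change in Pla2g2a can be read from them at either time. Of all named genes 0.330% were at the repeated value on 11 or 12 arrays. Among them was Pla2g1b, another phospholipase A2 gene (11 arrays).

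Cyp2f4, a P450 known in rodents for naphthalene metabolism in airway epithelium, had the highest ratios of the 8 genes. On 12 of 12 arrays it lay at or above 0.547. At 6 h its fluor and flip ratios were 1.18 and 0.83 in rat 2, 0.81 and 0.55 in rat 4, and 0.88 and 1.11 in rat 6. At 2 h they were 1.67 and 0.83 in rat 1, 1.32 and 1.29 in rat 2, and 1.499 and 0.55 in rat 3. The rat means did not overlap, at 0.68 to 1.01 at 6 h and 1.03 to 1.30 at 2 h, though the single arrays did. The means were 0.89 ± 0.18 at 6 h and 1.19 ± 0.15 at 2 h (SD, n = 3 each), or 1.86-fold and 2.28-fold. Only 16 of 3939 named genes had a higher mean at 6 h and 9 at 2 h. On fluor arrays alone it was 0.96 and 1.49, and on flip arrays alone 0.83 and 0.89, so the gap between the times was mostly on the fluor arrays. With the flip arrays multiplied by -1 it was 0.063 at 6 h and 0.30 at 2 h.

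Cyp4f1, a leukotriene B4 omega-hydroxylase of rat liver, followed Cyp2f4 array by array at a lower ratio. At 6 h its fluor and flip ratios were 0.77 and 0.71 in rat 2, 0.45 and 0.46 in rat 4, and 0.54 and 0.88 in rat 6. The 2 h ratios were 1.10 and 0.60 in rat 1, 0.77 and 0.81 in rat 2, and 1.01 and 0.41 in rat 3. The rat means overlapped, at 0.45 to 0.74 at 6 h and 0.71 to 0.85 at 2 h, with rat 4 the lowest at 6 h for both genes. The means were 0.63 ± 0.16 at 6 h and 0.78 ± 0.069 at 2 h, or 1.55-fold and 1.72-fold, and with the flip arrays multiplied by -1 they were -0.047 and 0.18. The log2 ratio of Cyp4f1 was 0.55 to 0.85 of that of Cyp2f4 (median 0.67), and Cyp2f4 was the higher on 12 of 12 arrays. Their Pearson correlation was 0.94 over the 12 arrays, the highest of Cyp2f4 with any of 3938 named genes. Next came Il6st, the gp130 cytokine receptor subunit (0.91), and the stress gene Gadd45g (0.88). The probes are numbered 192 apart and the genes lie on chromosomes 7 and 1. No probe sequence was at hand, so cross-hybridisation between P450 transcripts was not tested.

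**Figure D2:**
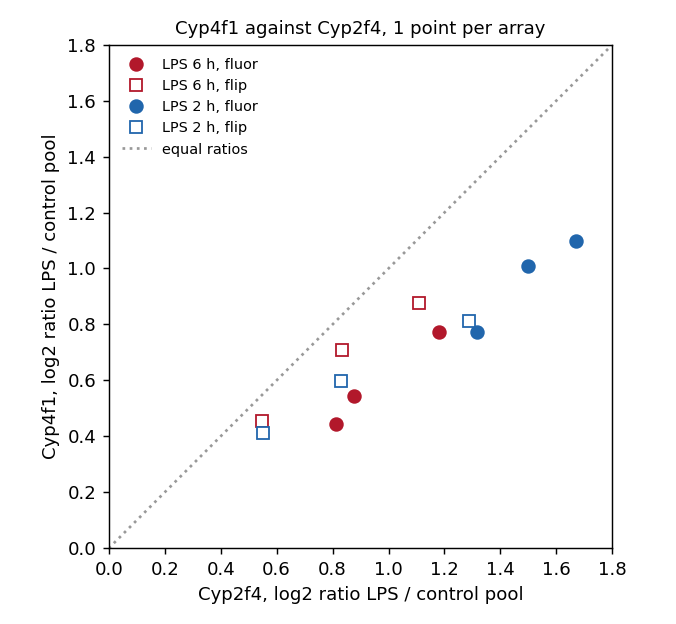
Log2 ratio of Cyp4f1 (vertical axis) against that of Cyp2f4 (horizontal axis), 1 point per array, red for 6 h and blue for 2 h, filled circles for fluor and open squares for flip arrays. All 12 points lie below the dotted line of equal ratios, at a Pearson correlation of 0.94.

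Probes numbered 2 apart resembled each other on these arrays, which touches both 4F genes. Across 7168 such pairs the means over 12 arrays correlated at 0.19 (Pearson), against 0.024 for probes numbered 1 apart and 0.024 for 3 apart. The figure was 0.12 for 4 apart and 0.044 for 6 apart, distances that did not enter the regression on probes 2 before and 2 after. Cyp4f1 is numbered 2 after Anxa1, which had far larger ratios, 1.94 ± 0.62 at 6 h and 2.65 ± 0.58 at 2 h, and correlated with Cyp4f1 at 0.74 over the arrays. With the probes numbered 2 before and 2 after regressed out, Cyp4f1 stood at 0.33 at 6 h and 0.36 at 2 h. For Cyp2f4, 2 before Cacnb2 (0.89 at 6 h and 0.59 at 2 h), the same step left 0.76 at 6 h and 1.11 at 2 h. Alox5ap is numbered 2 before Ptpn21, which averaged 0.24 at 6 h and 0.044 at 2 h and correlated with Alox5ap at 0.54. The regression left Alox5ap at 0.23 at 6 h and 0.094 at 2 h. How far neighbours account for the ratios was not tested.

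Cyp4f4, a relative of Cyp4f1 from the same stretch of chromosome 7 (12 annotated genes lie between them in GRCr8, 5 of them protein-coding), was above 0 at 2 h and around 0 at 6 h. Its fluor and flip ratios at 6 h were 0.13 and -0.019 in rat 2, 0.19 and 0.18 in rat 4, and -0.091 and -0.11 in rat 6. The 2 h pairs were 0.35 and 0.20 in rat 1, 0.39 and 0.28 in rat 2, and 0.50 and 0.23 in rat 3. All 2 h arrays lay above all 6 h arrays, and the rat means did not overlap. The means were 0.047 ± 0.14 at 6 h and 0.33 ± 0.046 at 2 h (SD, n = 3 each), and 0.030 and 0.089 with the flip arrays multiplied by -1. The 6 h mean was -0.021 without rat 4 and 0.12 without rat 6. The pattern was also that of Emb, a cell adhesion glycoprotein gene numbered 2 before it. Emb averaged 0.081 ± 0.37 at 6 h and 0.74 ± 0.19 at 2 h, and its correlation with Cyp4f4 was 0.95 over the arrays, rank 3 of 7199 probes. Regressing out the probes numbered 2 before and 2 after left Cyp4f4 at 0.0065 at 6 h and 0.19 at 2 h.

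Cyp2d4, a P450 of the 2D family found in rat brain, was above 0 on 12 of 12 arrays and did not separate the times. At 6 h its fluor and flip ratios were 0.27 and 0.0092 in rat 2, 0.69 and 0.10 in rat 4, and 0.29 and 0.066 in rat 6. Those at 2 h were 0.15 and 0.27 in rat 1, 0.56 and 0.35 in rat 2, and 0.21 and 0.028 in rat 3. Rat 4 (0.39) at 6 h and rat 2 (0.46) at 2 h stood above the others of their time, which lay between 0.12 and 0.21. Of 10 erythroid genes 7 were also highest in rat 4 at 6 h and 7 in rat 2 at 2 h. The median of the 10 was 0.29 in rat 4, 0.19 in rat 2 and 0.020 in rat 6 at 6 h, and 0.43 in rat 2, 0.20 in rat 1 and -0.012 in rat 3 at 2 h. At 6 h the exceptions were the globins Hba-a1 (lowest in rat 4, at -0.16), Hbb and Hbb-b1. The share of all genes highest in these rats was not counted. Alox15 and Fdx1 were also highest in rat 4 at 6 h and rat 2 at 2 h, so the pattern was not confined to erythroid genes. The part of red cell precursors in Cyp2d4 was not tested. The means were 0.24 ± 0.14 at 6 h and 0.26 ± 0.17 at 2 h, and the 2 h mean was 0.17 without rat 2. At 6 h the fluor mean was 0.42 and the flip mean 0.059, and with the flip arrays multiplied by -1 the means were 0.18 at 6 h and 0.046 at 2 h.

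**Figure D3:**
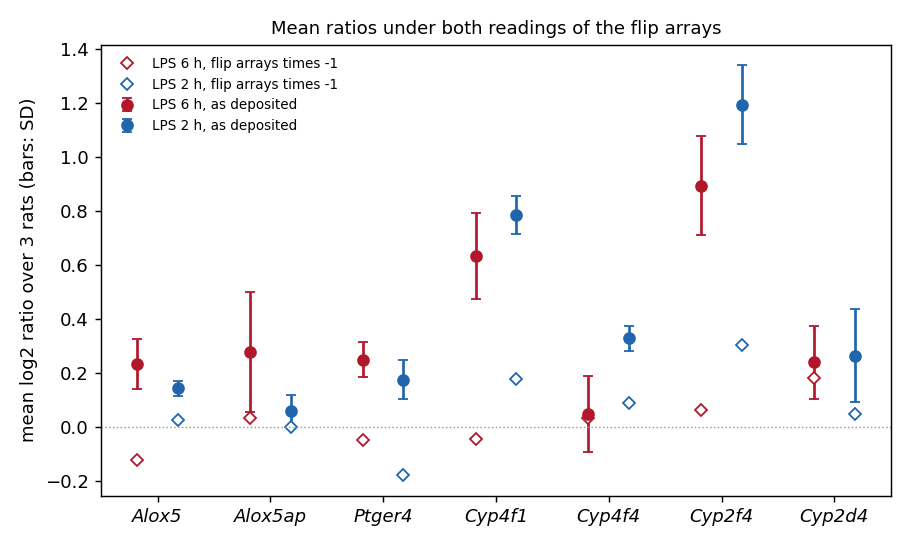
Mean log2 ratio over 3 rats (vertical axis) of the 7 genes with measured ratios on all arrays, as deposited (circles, bars are SD) and with the flip arrays multiplied by -1 (diamonds), red for 6 h and blue for 2 h. As deposited all 14 means lie above 0; in the other reading 5 lie below 0, among them Ptger4 at both times.

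Set side by side at 6 h, the order of the means was Cyp2f4, Cyp4f1, Alox5ap, Ptger4, Cyp2d4, Alox5 and Cyp4f4. Cyp2f4 and Cyp4f1 were the pair that stood apart, although their rat means overlapped each other. The next 4, from 0.28 down to 0.23, differed by less than their SD. At 2 h the order was Cyp2f4, Cyp4f1, Cyp4f4, Cyp2d4, Ptger4, Alox5 and Alox5ap, and the rat means of Cyp2f4 lay above those of Cyp4f1 in every rat. Alox5ap lay lowest at 2 h and came next after the P450 pair at 6 h, where Cyp4f4 lay lowest.

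As a description, limma's threshold (Benjamini-Hochberg adjusted p under 0.05) was passed upward by 5 of the 8 genes at 6 h, against 8.30% of all named genes. At 2 h 6 passed upward, against 9.34%, and 1 downward, Pla2g2a, against 9.82%. For 6 h minus 2 h it was 0 of 8, against 0.508% of all genes. Rat means of the times did not overlap for 3 of 8 against 21.7%: 6 h lay below 2 h for Cyp2f4 and Cyp4f4, against 10.1%, and above it for Pla2g2a, against 11.6%. On 12 of 12 arrays 4 of the 8 (Alox5, Cyp4f1, Cyp2f4 and Cyp2d4) were above 0, against 3.88% of all genes, and 0 were below 0, against 6.37%. All 6 rat means were above 0 for 6 of the 8, against 17.3%. Pla2g2a held the repeated value on 11 of 12 arrays, so its places in these counts are not calls on the gene. Since these ratios chose the genes, nothing is read from these counts.

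The rest of the pathway was thinly covered. Of 96 other genes listed by role 33 were on the array, and 31 of them had measured ratios. Neither cyclooxygenase gene was among them, nor were Lta4h, Ltc4s, Alox12, Pla2g4a, Ptges or any of 7 leukotriene and lipoxin receptors. At 6 h 1 of the 33 rose and 5 fell, against 8.30% and 10.7% of all genes, with a list median of -0.028 (all genes 0.0069). At 2 h 3 rose and 4 fell, against 9.34% and 9.82%, with a median of -0.025 (all genes -0.0070). For 6 h minus 2 h limma passed 0 of 33, with 3 at an unadjusted p under 0.05.

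In the release step Anxa1, an annexin once described as a phospholipase A2 inhibitor, rose at 6 h (limma adjusted p = 0.00372) and at 2 h (0.0012). Both calls were lost with the flip arrays multiplied by -1, where Anxa1 read 0.13 at 6 h (adjusted p = 0.511) and 0.32 at 2 h (adjusted p = 0.175). Plaat3, a phospholipase of fat tissue, fell at both times and was below 0 on 12 of 12 arrays. Its rats read -0.41, -0.46 and -0.54 at 6 h (adjusted p = 0.00038) and -0.44, -0.53 and -0.57 at 2 h (adjusted p = 0.000499). In that other reading Plaat3 was -0.050 at 6 h, no longer past the threshold (adjusted p = 0.252), and -0.13 at 2 h (adjusted p = 0.0423). Of the leukotriene and lipoxygenase enzymes, 1 of 9 passed at each time. Mgst2, which can make leukotriene C4, fell at 6 h (-0.27 ± 0.050, adjusted p = 0.00205) and stood at -0.014 ± 0.037 at 2 h. With the flip arrays multiplied by -1 it was 0.040 at 6 h (adjusted p = 0.390). Gpx4, which reduces lipid hydroperoxides, was at 0.010 ± 0.23 at 6 h and rose at 2 h (0.32 ± 0.074, adjusted p = 0.0337), a call lost without any 1 of the 2 h rats (adjusted p of 0.0793 to 0.166). Alox15, the 15-lipoxygenase, did not pass at either time, at 0.41 ± 0.55 at 6 h and 0.56 ± 0.27 at 2 h (adjusted p = 0.167 and 0.0795).

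On the prostaglandin side 2 of 4 synthesis genes fell at both times, against 10.7% of all genes at 6 h and 9.82% at 2 h. Akr1b1, an aldose reductase that also acts as a prostaglandin F synthase, read -0.19 ± 0.037 at 6 h and -0.15 ± 0.043 at 2 h (adjusted p = 0.00635 and 0.0173). Gstm2, a glutathione transferase, read -0.52 ± 0.18 at 6 h and -0.60 ± 0.29 at 2 h (adjusted p = 0.0178 and 0.0114). Calls ended without single rats: Gstm2 at 6 h without any of the 3 rats (adjusted p of 0.0568 to 0.0810), and Akr1b1 at 2 h without rat 2 (0.0812) or rat 3 (0.0568). On flip arrays alone neither gene passed at either time. Nor did they with the flip arrays multiplied by -1, where Akr1b1 read -0.092 and -0.062 (adjusted p = 0.154 and 0.376) and Gstm2 -0.43 and -0.51 (adjusted p = 0.0644 and 0.0683) at 6 h and 2 h. Of the 4 genes of prostaglandin removal and transport 0 passed limma's threshold in any contrast, with 1 at an unadjusted p under 0.05 at 2 h. Ptger1, the EP1 receptor, fell where Ptger4 lay above 0, at -0.31 ± 0.072 at 6 h and -0.27 ± 0.11 at 2 h (adjusted p = 0.00582 and 0.0105), yet it lay above 0 on 4 of 12 arrays. Its 2 h value was 0.19 on the flip arrays alone. With the probes numbered 2 before and 2 after regressed out Ptger1 no longer passed limma's threshold at 6 h or 2 h (adjusted p = 0.2497 and 0.103), and without rat 2 it missed at 2 h (adjusted p = 0.0590). Ptgfrn held the repeated value on 12 of 12 arrays. Of 7 epoxide hydrolases and P450 partners only Fdx1, the ferredoxin that serves mitochondrial P450s, passed: it stood at 0.29 ± 0.19 at 6 h and rose at 2 h (0.46 ± 0.22, adjusted p = 0.0186), a call lost without rat 2 (0.102) or rat 3 (0.0688).

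**Figure D4:**
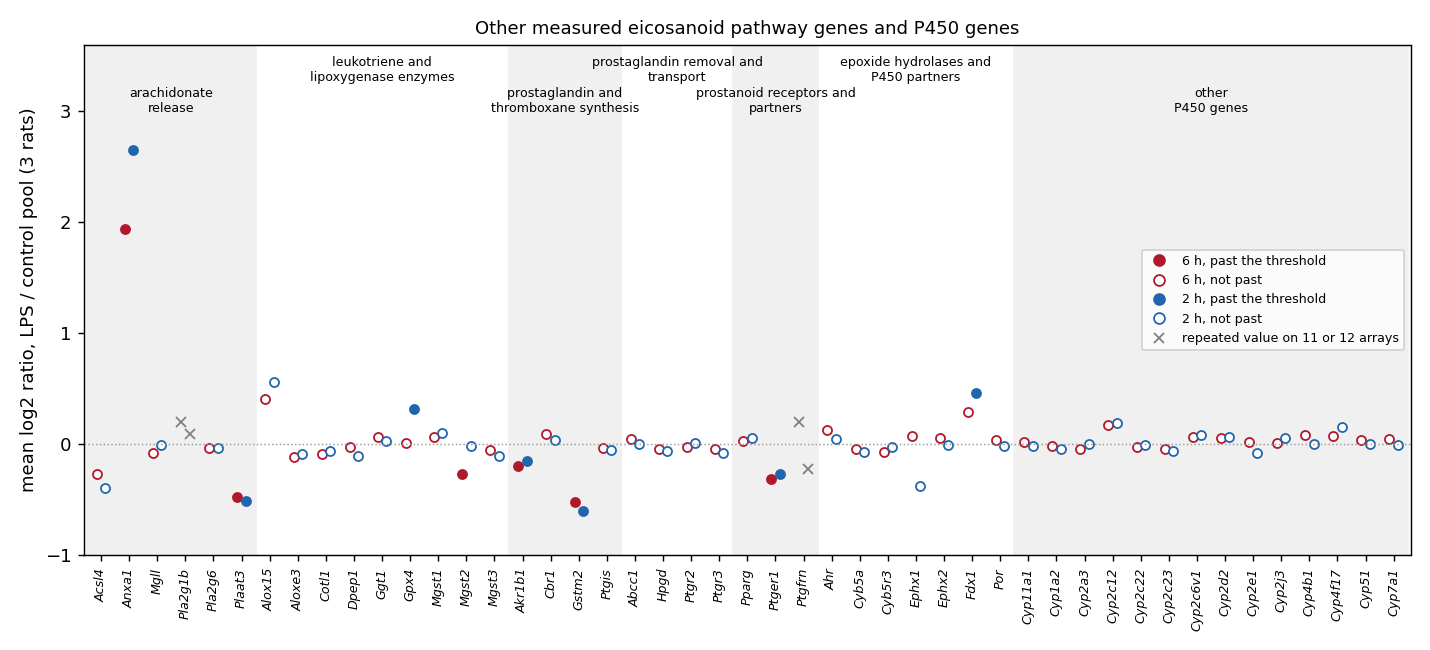
Mean log2 ratio over 3 rats (vertical axis) of 33 other eicosanoid pathway genes, grouped by role, and 14 other P450 genes, red for 6 h and blue for 2 h. Filled points passed limma's adjusted threshold, and crosses mark genes at the repeated value on 11 or 12 arrays. The 14 P450 genes lie between -0.081 and 0.19.

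The other P450 genes had small means as deposited, which in part average arrays of opposite sign. Of 14 with a single symbol, limma passed 0 at 6 h and 0 at 2 h, with 2 and 1 at an unadjusted p under 0.05. Of all genes 19.0% and 19.2% passed in either direction. Left out of the 14 were Cyp4f1, Cyp4f4, Cyp2f4 and Cyp2d4, which had been picked with these ratios in view. Limma passed Cyp2f4 and Cyp4f1 at 6 h and all of them at 2 h. The count of 0 therefore does not describe P450 genes as a whole. The means of the 14 ran from -0.042 to 0.17 at 6 h and from -0.081 to 0.19 at 2 h. Cyp4f17, another 4F gene, was at 0.078 ± 0.17 at 6 h and 0.16 ± 0.18 at 2 h. Cyp2d2, of the same family as Cyp2d4, was at 0.059 ± 0.037 and 0.068 ± 0.024. With the flip arrays multiplied by -1 Cyp2c12, the highest of the 14 as deposited (0.17 at 6 h and 0.19 at 2 h), read -0.54 and -0.73. In that reading 9 of the 14 passed at 6 h and 4 at 2 h.

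Markers of cells that could carry these transcripts were counted beside them. Of all named genes 8.30% rose and 10.7% fell at 6 h, and 9.34% rose and 9.82% fell at 2 h. Among 6 neutrophil genes 3 rose at 6 h (S100a9, Lcn2 and Il1r2) and 4 at 2 h, where Chi3l1 joined them and Hdc fell. The rest did not pass and lay below 0: Chi3l1 (-0.37), S100a8 (-0.053) and Hdc (-0.034) at 6 h, and S100a8 (-0.083) at 2 h. Among 3 monocyte and macrophage genes C1qb and C1qc fell at 6 h and C1qb at 2 h. Of 8 lung epithelium genes Foxj1 rose at 6 h and limma passed 0 at 2 h (2 at an unadjusted p under 0.05). Scgb1a1, the club cell secretory protein, stood at 0.023 ± 0.14 at 6 h and 0.032 ± 0.069 at 2 h. Of 15 liver genes Serpina1, G6pc1 and Orm1 rose at 6 h, while at 2 h Tf rose and Serpina3n fell. Of 10 erythroid genes the globins Hba-a1, Hbb and Hbb-b1 fell at 6 h, and at 2 h Alas2, Slc4a1, Car2 and Add2 rose and Hba-a1 fell. T cell genes fell in 2 of 4 at both times (Cd3d and Lef1) and B cell genes in 1 of 2 at 6 h (Cd37) and 2 of 2 at 2 h (Cd37 and Blnk). Mcpt1, of 2 mast cell genes, rose at 6 h, and Gp9, of 2 platelet genes, rose at 2 h. With the flip arrays multiplied by -1, Il1r2 (-0.094), Mcpt1 (-0.23), Cd37 (0.0072), Serpina1 (-0.060) and Orm1 (-0.12) took the other sign at 6 h. Lcn2 did so at 2 h (-0.15). The other markers named as rising or falling kept their sign, S100a9 at 0.24 at 6 h and 0.14 at 2 h. Whether their calls held in that reading is not given here. As deposited, Mcpt1 lay above 0 on 7 of 12 arrays and Hba-a1 on 5. The part of these cells in the ratios of the 8 genes was not tested.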

How the data were processed

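The data are 1 table of 7200 probes on 12 arrays, deposited by the authors as log2 ratios of the channels, with 0 array columns left out. Base 2 was inferred because 2 to the power of the value was a whole multiple of 0.0001 in 100% of linear ratios under 5 (tolerance 0.05 of a step). Dyes, scanner, background correction and normalization are not given in the labels. Array medians lay between -0.020 and 0.0083. Per the labels each rat was hybridised on 2 arrays, averaged here as 1 replicate. The rats numbered 2 at the 2 times were treated as different animals. Names came from the 2007 platform annotation, updated through GRCr8 gene identifiers: 4190 probes had 1 symbol, 46 several and 2964 none. Probes of a gene were averaged, giving 3939 genes. Rat means were fitted with limma 3.58.1 (R 4.3.3) in 1 model with 4 residual degrees of freedom, Benjamini-Hochberg over all named genes, after a test on simulated data. P-values measure the spread between these rats. Members and lists were chosen with earlier results of these data known. Named genes are the 8, pathway and P450 genes past the threshold, and a few central enzymes fixed by name; Cyp4f17, Cyp2d2, Cyp2c12, Scgb1a1, Pla2g1b, Ptgfrn and the neighbouring probes were named after their values were seen. The precision is limited by having 3 rats and 1 control pool per time. Alternatives covered the direction, array type, normalization, neighbouring probes, repeated values, variance prior and single rats.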

Additional observations from a re-analysis of the deposited data

Results flagged for a closer look

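The deposited values of Pla2g2a averaged above 0 in all 3 rats at 6 h and below 0 in all 3 rats at 2 h, a difference of 0.81 that was not tested. Of its 12 values 11 were the repeated value of their array, so no change of the gene is shown. The values of Ptgfrn, a prostaglandin receptor regulator, had the same signs and a difference of 0.43, also with no test that bears on the gene: all 12 were the repeated value of their array, and it had no measured ratio.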

How the results depend on the processing

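No paired analysis was possible because the rats of the 2 times share only 1 number. With the flip arrays multiplied by -1, these means of the 8 genes took the other sign: Alox5 at 6 h (-0.12), Alox5ap at 2 h (-0.0009), Ptger4 at 6 h (-0.049) and 2 h (-0.18), Pla2g2a at 6 h (-0.28), Cyp4f1 at 6 h (-0.047) and, of the pathway genes past the threshold, Mgst2 at 6 h (0.040); genes not past it were not followed. Ptger4 was -0.0061 at 2 h and Pla2g2a -0.082 at 6 h on fluor arrays alone, and on flip arrays alone Pla2g2a was 0.017 and Ptger1 0.19 at 2 h. Single rats moved 4 means of the 8 genes by over 1.5 times: Cyp4f4 at 6 h, which turned to -0.021 without rat 4 and was 0.12 without rat 6, and at 2 h Alox5ap (0.027 without rat 3), Cyp2d4 (0.17 without rat 2) and Pla2g2a (-0.34 without rat 3).

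Genes past the threshold at 6 h numbered 749, and 1461 with the flip arrays multiplied by -1, 1202 on fluor arrays alone and 306 to 927 without single rats. Those at 2 h numbered 755, and 1142 on fluor arrays alone, 336 on flip arrays alone, 500 with each time fitted on its own and 323 to 668 without single rats. For 6 h minus 2 h they numbered 20, and 131 when all arrays entered with dye modelled and rats as random blocks, 11 by probe, 0 with the flip arrays multiplied by -1, 4 on fluor and 5 on flip arrays alone, 8 after quantile normalization and 2 to 31 without single rats. Beside that 0, 484 genes had an unadjusted p under 0.05. The other pathway genes numbered 6 at 6 h, and 18 with the flip arrays multiplied by -1, 17 on fluor and 11 on flip arrays alone, and 10 with neighbours subtracted. Theirs at 2 h was 7, and 12 with the flip arrays multiplied by -1, 16 on fluor arrays alone and 3 to 9 without single rats. For 6 h minus 2 h they numbered 0, and 2 in the model of all arrays and 0 to 1 without single rats. The other P450 genes numbered 0 at 6 h, and 9 with the flip arrays multiplied by -1, 4 on fluor and 6 on flip arrays alone, 1 with neighbours subtracted and 1 after scale normalization. Theirs at 2 h was 0, and 4 with the flip arrays multiplied by -1, 3 on fluor and 1 on flip arrays alone, and 1 each after quantile normalization, scale normalization and regressing out probes numbered 2 apart, a setting chosen after seeing the data. The cause of these moves was not tested.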
